A study of Sus scrofa with 6 samples.

Results

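Intronic circRNAs (ciRNAs) that share one end with another ciRNA were taken from testis libraries of Landrace boars before and after sexual maturity. A ciRNA was a member if its chromosome, strand and start, or its chromosome, strand and end, were the same as those of at least 1 other ciRNA, and the host genes PTBP1 and MOV10L1 were left out. The members were 458 of the 1798 ciRNAs analysed here (25.5%), in a table of 4350 circRNAs, and they came from 184 host genes. Of the other ciRNAs, 1315 shared no end, and 25 belonged to the 2 genes left out.

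The Piglet-D30 group held 3 boars aged 30 days and the Adult-D210 group 3 boars aged 210 days with 1 testis library a boar, and the labels name no treatment. RNA was depleted of ribosomal RNA and digested with RNase R, an exonuclease that removes linear RNA, so the libraries measure circular and lariat RNA and not the linear transcript. The value of a circRNA is the raw number of reads that span its back-splice junction, and the libraries held 33091, 18445 and 18618 such reads in Piglet-D30 replicates 1 to 3 and 23583, 14305 and 12701 in Adult-D210 replicates 1 to 3. Coordinates are on the build Sscrofa10.2, counted from 1, and the sequences of the junctions were not analysed here.

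When an intron is removed, its 5′ end is joined to an adenosine near its 3′ end, the branch point, and a lariat with a tail is released. Most lariats are debranched and degraded, whereas a lariat that escapes debranching can lose its tail and remain as a circle that runs from the 5′ splice site to the branch point. Some introns use more than a single branch point, and reverse transcription across the branch is known to be prone to errors.

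The shared end was the 5′ splice site in all 194 cases (100%). On the plus strand the shared coordinate was the start and on the minus strand the end, with 117 shared sites on the plus strand and 77 on the minus strand. No end on the branch-point side was shared by any of the 1798 ciRNAs, which had 1512 distinct 5′ splice sites and 1798 distinct ends on the other side. All 1798 ciRNAs begin at the first base of the intron listed beside them. How far the side of the shared end follows from how ciRNAs are listed was not tested. With ends up to 2 nt or 5 nt apart counted as the same, chosen after seeing the data, 135 or 149 ends on the branch-point side were shared as well, each within 1 shared 5′ splice site, and the 5′ splice site made up 59.0% or 56.6% of shared ends. The members of each shared site formed 1 linked set within 1 listed intron, and 10 host genes had 2 such sets.

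Most sets were pairs. A 5′ splice site was shared by 2 ciRNAs in 150 sets (77.3%), by 3 in 28, by 4 in 10, by 5 in 3, by 6 in 2 and by 7 in 1. The set of 7 lay in UBQLN4, whose protein takes ubiquitinated proteins to the proteasome, and the 2 sets of 6 lay in MBNL1, a regulator of alternative splicing, and GBF1, an exchange factor for the Arf GTPases of the Golgi. The sets of 5 lay in FADS1, a fatty acid desaturase, NDUFS3, a subunit of respiratory complex I, and FRS2, an adaptor of FGF receptors. The sets of 4 lay in INPP5K, KIAA0355, PPP6R1, CSTPP1, GAA, ACSL6, EIF3D, ACTG1, DNM2 and the gene listed as ENSSSCG00000006556.

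The variable ends lay close together. The 264 distances between neighbouring ends had a median of 2 nt (quartiles 1 and 6), 114 of them (43.2%) were 1 nt and 54 (20.5%) were 2 nt. Up to 5 nt separated 194 of the 264 (73.5%), 55 were 6 to 50 nt and 15 were over 50 nt. From the first to the last end, a set spanned a median of 3 nt, and 123 of the 194 sets spanned at most 5 nt. Among members with at least 2 reads the median distance was 1 nt, over 81 shared sites. Whether neighbouring ends are separate circles or 1 junction placed at different bases was not tested.

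**Figure D1:**
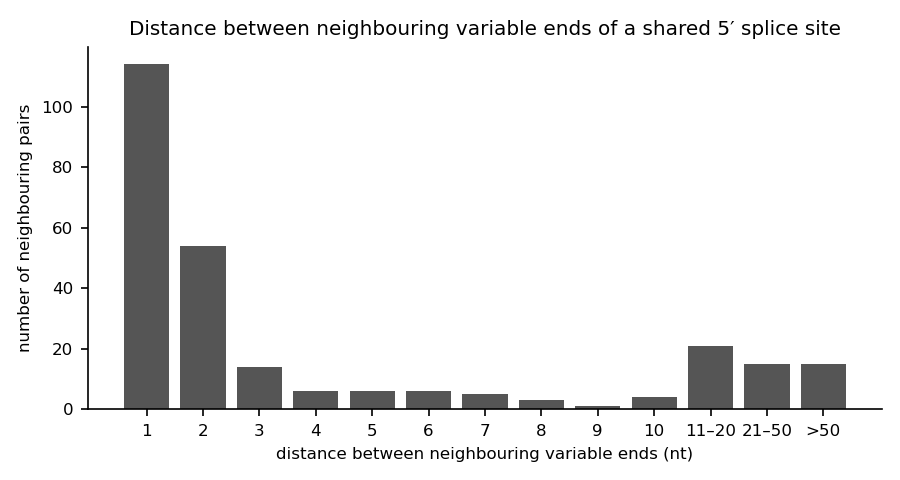
Number of neighbouring pairs of variable ends (vertical axis) by the distance between them in nt (horizontal axis) over the 194 shared 5′ splice sites. The bars at 1 nt and 2 nt hold 114 and 54 of the 264 distances, and 15 distances exceed 50 nt.

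Against the 3′ splice site of the listed intron, the variable ends fell in 2 places. In 257 of the 458 members (56.1%) the end lay 15 to 45 nt before the 3′ splice site, the stretch where mammalian branch points are mostly found, with a median of 24 nt (quartiles 21 and 28). These members held 2423 of the 3016 reads of all members (80.3%). In 124 members (27.1%) the end lay within 5 nt of the 3′ splice site, with 438 reads, and 77 members (16.8%) ended elsewhere, with 155 reads. Of the 1315 ciRNAs that shared no end, 476 (36.2%) ended in the stretch of 15 to 45 nt, also with a median of 24 nt, and 541 (41.1%) within 5 nt of the 3′ splice site. Both ends of a shared site are counted here, so members of 1 set are not independent, and the difference between members and other ciRNAs was not tested.

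Counts at the 3′ splice site were unequal between the strands. A circle that reached the last base of the intron was listed for 41 of 278 members on the plus strand (14.7%) and 6 of 180 on the minus strand (3.33%). Among ciRNAs that shared no end, these were 292 of 774 (37.7%) and 75 of 541 (13.9%). Ends at both 0 and 1 nt were found in 18 sets on the plus strand and 0 on the minus strand, including PPP1R1B, GBF1, MAN2A2, EIF1 and KPNB1. In the stretch of 15 to 45 nt the median was 24 nt on both strands, with 134 of 278 members on the plus strand (48.2%) and 123 of 180 on the minus strand (68.3%). What sets the strands apart was not tested.

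**Figure D2:**
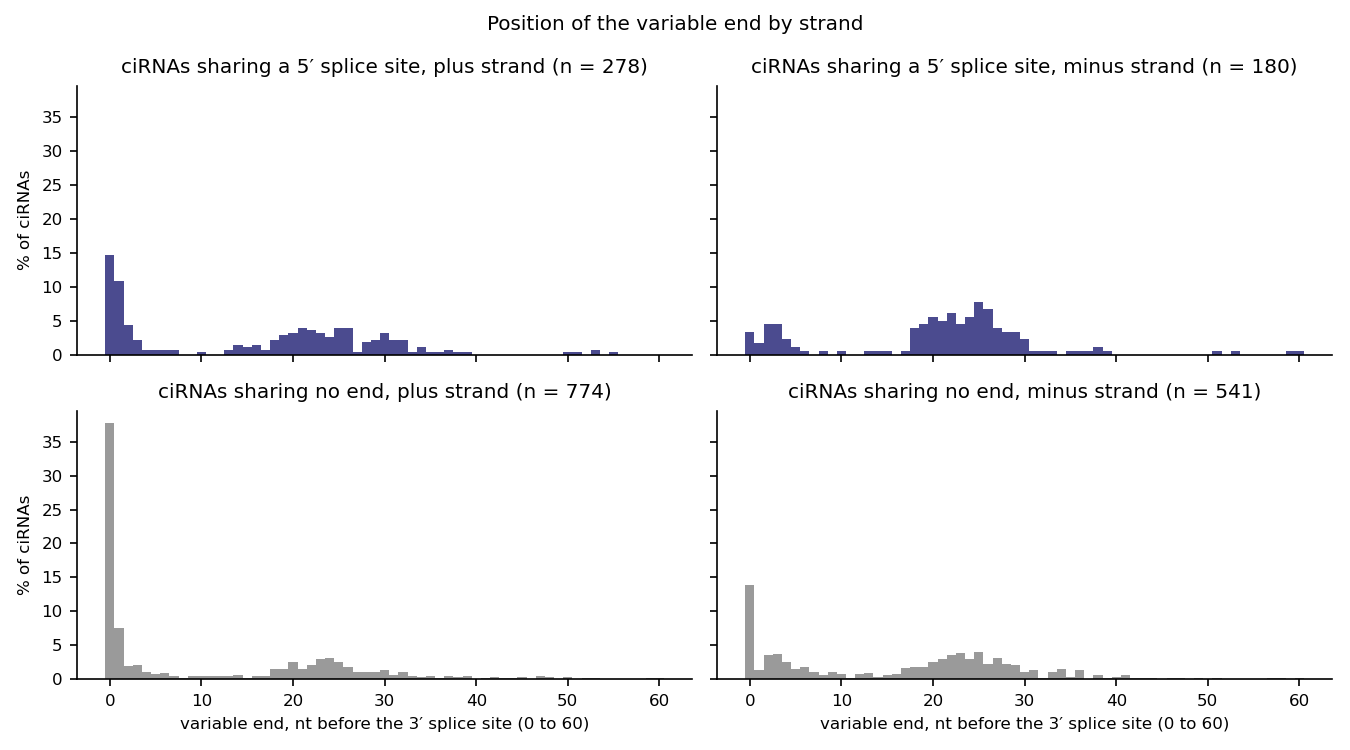
Percent of ciRNAs (vertical axis) by the distance of the variable end from the 3′ splice site, from 0 to 60 nt (horizontal axis), on the plus strand (left) and minus strand (right), for ciRNAs that share a 5′ splice site (top) and those that share no end (bottom). Ends gather near 0 nt and around 24 nt in each panel, and the bar at 0 nt holds 14.7% of the members on the plus strand and 3.33% on the minus strand.

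Ends of 93 sets all lay 15 to 45 nt before the 3′ splice site, those of 36 sets all lay within 5 nt of it, and 19 sets had ends in both places and nowhere else. The remaining sets had at least 1 end elsewhere. In GBF1 (chromosome 14, plus strand) the 6 ends lay 0, 1, 50, 51, 53 and 55 nt before the 3′ splice site. In FRS2 the 5 ends lay 1, 2, 3, 59 and 69 nt before it, and in ENSSSCG00000006556 the 4 ends lay 1, 2, 109 and 110 nt before it. In each of these 3 introns the ends thus formed 2 groups. MBNL1 had 6 ends far from the 3′ splice site, at 201, 202, 203, 204, 205 and 217 nt, and DNM2, which encodes a GTPase of membrane fission, had 4 ends at 79, 81, 83 and 84 nt. A set of CLK3, a kinase of splicing factors, had 3 ends at 175, 178 and 180 nt and was chosen after its values were seen.

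The largest distance between neighbouring ends was in ATXN10, 9793 nt in an intron of 102817 nt, where ciRNA93 with 8 reads ended 60130 nt before the 3′ splice site and the other ciRNA with 1 read 69923 nt before it. Among sets with at least 5 reads the next largest distances were in STK11, a kinase upstream of AMPK, with ends at 3 and 565 nt, CA5B, a mitochondrial carbonic anhydrase, with ends at 0, 2 and 272 nt, BRD2, a reader of acetylated histones, with ends at 0 and 182 nt, and ENSSSCG00000006556. Distances of 1 nt were the smallest, and the 5 sets with the most reads, INPP5K, KIAA0355, RUSC2, FADS1 and DENND4B, all had them.

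Reads were few for most members. The median was 2 reads over the 6 libraries, against 1 read for ciRNAs that shared no end. A single read supported 193 members (42.1%), 329 (71.8%) were seen in 1 library, 58 (12.7%) in at least 3 libraries and 12 in all 6. Of ciRNAs that shared no end, 723 of 1315 (55.0%) had a single read, 1194 (90.8%) were seen in 1 library and 5 in all 6. A set needs a read at each of at least 2 ends, so introns with more reads enter more readily, and how much of the difference follows from that was not tested. The second end of a set had 1 read in 113 of 194 sets (58.2%) and at least 3 reads in 41, and 99 sets had reads at 2 or more ends in the same library. Without the ciRNAs of a single read, 186 members at 81 shared sites remained.

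The members held 3016 of the 6299 ciRNA reads (47.9%), and a few sets held most of them. The 10 sets with the most reads had 1707 reads (56.6%), and the set of INPP5K alone had 809 (26.8%). INPP5K, an inositol polyphosphate 5-phosphatase, is listed as ENSSSCG00000030707, and its 4 ciRNAs start at the 5′ splice site at base 49604271 of chromosome 12 on the minus strand, in an intron of 180 nt. The end 21 nt before the 3′ splice site (ciRNA336) had 98, 134 and 96 reads in Piglet-D30 replicates 1 to 3 and 100, 83 and 76 in Adult-D210 replicates 1 to 3. The end at 22 nt (ciRNA337) had 18, 32 and 34 reads in the piglets and 60, 15 and 19 in the adults. At 24 nt (ciRNA338) there were 3, 8 and 8 reads in the piglets and 16, 0 and 6 in the adults. The order of the 3 ends was the same in every library, with the end at 21 nt highest, and the groups overlapped in reads at each end. Scaled to mapped reads, the end at 21 nt lay higher in the 3 piglet libraries than in the 3 adult libraries (2.64 ± 0.431 against 1.88 ± 0.280 RPM, reads per 1000000 mapped reads; SD, n = 3), and the other ends overlapped. With edgeR's TMM scaling of back-splice reads, the end at 21 nt had a log2 fold change of -0.037 (SE 0.30, edgeR adjusted p = 0.955). That scaling rests on the 1341 circRNAs tested, of which 1270 were exonic.

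Summed over its ends and scaled to mapped reads, the piglets had 3.45 ± 0.466 RPM (SD, n = 3) of INPP5K and the adults 2.71 ± 0.766 (SD, n = 3), and the groups overlapped. Its log2 fold change was 0.07 (SE 0.29, edgeR adjusted p = 0.896), and the sign turned with mapped reads as library size and without Piglet-D30 replicate 1. The set of KIAA0355 (179 reads) had 72, 28 and 34 reads in the piglets and 31, 11 and 3 in the adults, and 146 of the 179 reads were at the end 21 nt before the 3′ splice site. RUSC2 (168 reads) had ends at 24, 25 and 26 nt with 55, 86 and 27 reads. FADS1 (144 reads) was spread more evenly, over ends at 17, 18, 19, 20 and 22 nt, and its leading end at 20 nt held 42.4%. DENND4B (101 reads), an exchange factor for Rab GTPases, held 95.0% of its reads at the end 26 nt before the 3′ splice site. Its set had 23, 36 and 13 reads in the piglets and 9, 8 and 12 in the adults, and it did not pass the test (log2 fold change -0.96, SE 0.55, edgeR adjusted p = 0.282).

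Next in reads came PPP6R1 (83 reads), a subunit of protein phosphatase 6, PPP1R1B (69), FANCA (55), of the Fanconi anaemia DNA repair pathway, CYP17A1 (51) and PRP4K (48), a kinase of the spliceosome, which tied with DNHD1 (48). In FANCA the end at 26 nt (ciRNA42) had 15, 5 and 2 reads in the piglets and 5, 4 and 2 in the adults. The end 1 nt away (ciRNA43) had 2, 0 and 0 reads in the piglets and 20, 0 and 0 in the adults. Adult-D210 replicate 1 thus held 20 of the 22 reads of ciRNA43. The same was seen in WDR90, a centriole protein, where all 10 reads of ciRNA573 came from Piglet-D30 replicate 2. Of the 103 members with at least 5 reads, 20 had all of them in 1 library.

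**Figure D3:**
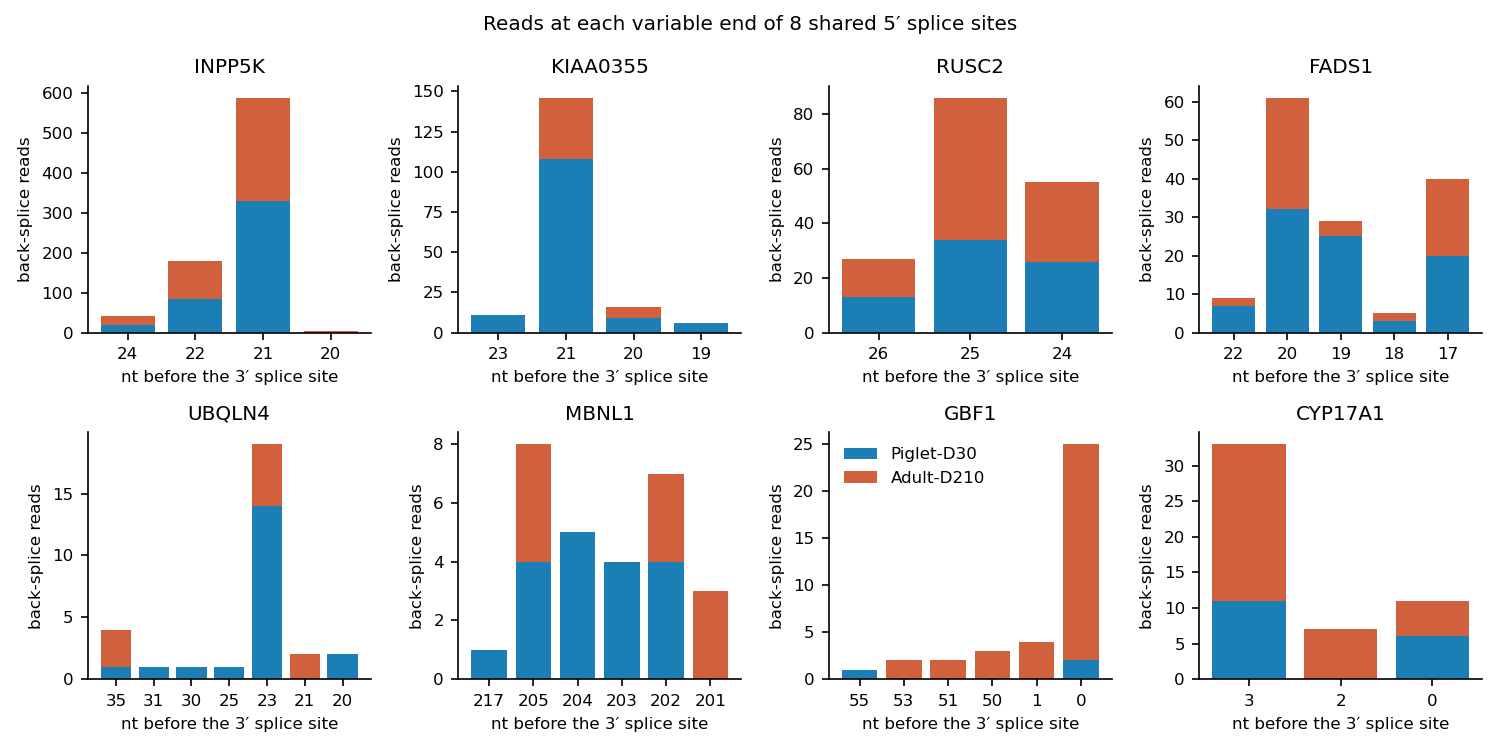
Back-splice reads summed over the 6 libraries (vertical axis) at each variable end of 8 shared 5′ splice sites, with reads of Piglet-D30 in blue and of Adult-D210 in orange. Ends are ordered along the horizontal axis by their distance in nt before the 3′ splice site and are not spaced to scale. INPP5K has 587 of its 809 reads at 21 nt, and MBNL1 has its 28 reads between 201 and 217 nt.

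Among the 46 sets with at least 10 reads, the leading end held a median of 70.0% of the reads, from 28.6% in MBNL1 to 95.8% in RNF25, a ubiquitin ligase. Of the 26 pairs with at least 10 reads, 23 had an end that led, which was the one nearer the 3′ splice site in 13 and the one farther from it in 10. In 4 sets with at least 5 reads in every library, the share of the leading end was compared between the ages. For INPP5K it was 82.4%, 77.0% and 69.6% in Piglet-D30 replicates 1 to 3 and 56.8%, 84.7% and 73.1% in Adult-D210 replicates 1 to 3. The groups overlapped for INPP5K, RUSC2, FADS1 and DENND4B, with p from 0.4 to 1 by exact permutation tests over 3 against 3 libraries and an adjusted p of 1 for each. Such a permutation test cannot give a p below 0.1, and no other test of these shares was run.

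The reads of all members together did not separate the ages. Members had 16.8, 13.4 and 11.3 RPM in Piglet-D30 replicates 1 to 3 and 13.2, 8.87 and 6.27 in Adult-D210 replicates 1 to 3, and the groups overlapped. Their means were 13.8 ± 2.79 (SD, n = 3) and 9.44 ± 3.49 (SD, n = 3). Per 1000000 back-splice reads the means were 25671 ± 6417 in the piglets and 25555 ± 1739 in the adults (SD, n = 3), and the groups overlapped. The exonic circRNAs in these totals each have a read in Piglet-D30 replicate 1. That library had 18978 member reads per 1000000, against 31770 and 26265 in Piglet-D30 replicates 2 and 3. How this choice of rows changes the comparison of the ages was not tested. At least 1 read was found for 142, 144 and 136 members in the piglets and 112, 105 and 83 in the adults, and for 306, 321 and 278 ciRNAs that shared no end in the piglets and 200, 214 and 183 in the adults, both without overlap. The ciRNAs that shared no end had 21.0, 14.7 and 10.9 RPM in the piglets and 8.40, 9.34 and 7.03 in the adults. As a share of the ciRNA reads of each library, members held 43.0%, 45.3% and 48.9% in the piglets and 59.1%, 47.1% and 44.8% in the adults. In bulk tissue, fewer cells of a type and less RNA per cell cannot be told apart. Of the 458 members, 85 (18.6%) had reads at both ages, 231 only in Piglet-D30 and 142 only in Adult-D210. Of the 1315 ciRNAs that shared no end, these were 78 (5.93%), 758 and 479. The 329 members seen in 1 library fall at 1 age by necessity.

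**Figure D4:**
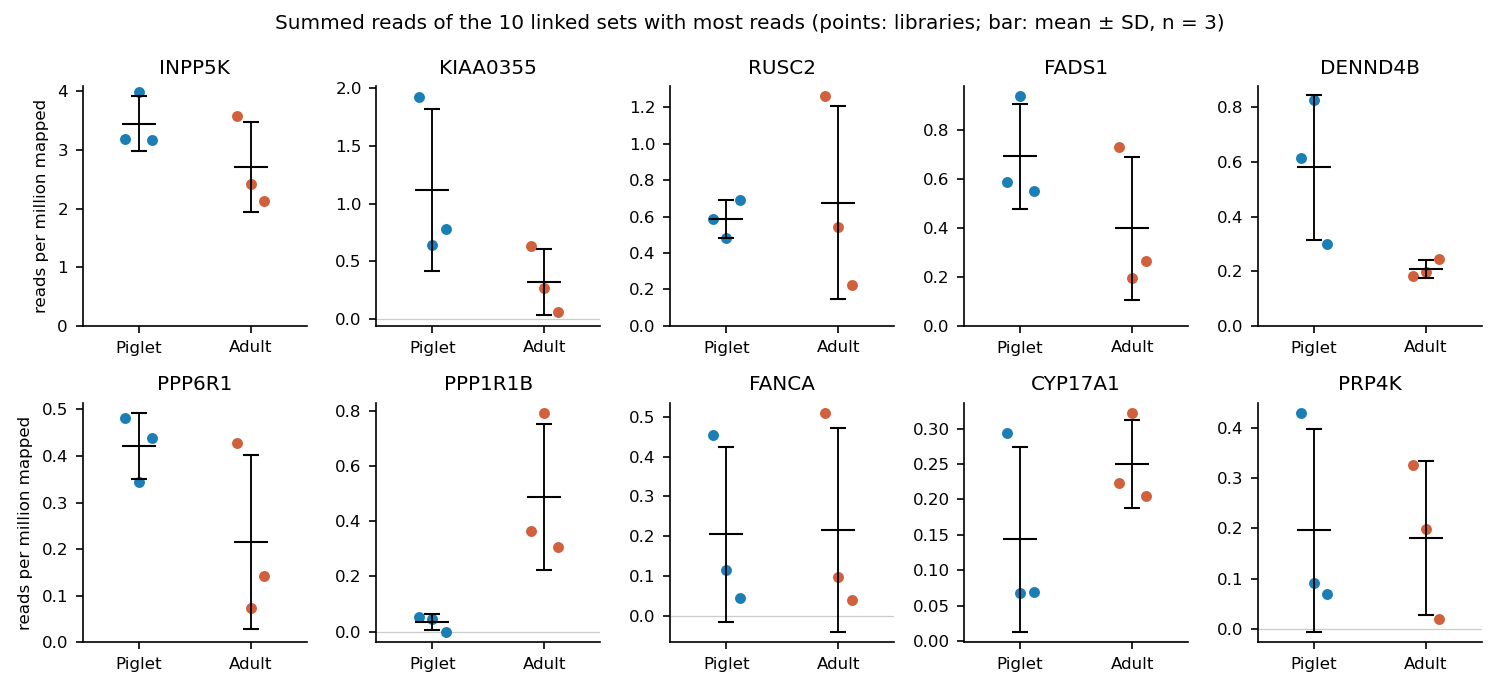
RPM (reads per 1000000 mapped reads; vertical axes, different scales) of the 10 linked sets with the most reads in Piglet-D30 (blue) and Adult-D210 (orange). Points are libraries, and the black lines are the mean and SD of 3 libraries. PPP1R1B lies higher in the 3 adult libraries than in the 3 piglet libraries, KIAA0355 and DENND4B lie lower, and the other 7 sets overlap. The lowest piglet library of KIAA0355 (0.642 RPM) lies just above its highest adult library (0.630 RPM). Neither KIAA0355 nor DENND4B passed the test (edgeR adjusted p = 0.143 and 0.282). The share of all circRNAs tested that separate in this way was not counted. PRP4K tied with DNHD1, which is not drawn.

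PPP1R1B and GBF1 each had 1 ciRNA that passed the test as higher in Adult-D210, and the call of GBF1 depended on the settings. PPP1R1B encodes an inhibitor of protein phosphatase 1, and its ciRNA329 (chr12:23071512-23071802, plus strand) covers a whole intron of 291 nt. It had 1, 2 and 0 reads in Piglet-D30 replicates 1 to 3 and 18, 30 and 14 in Adult-D210 replicates 1 to 3. All 3 adult libraries lay above all 3 piglet libraries. The log2 fold change was 4.56 (SE 0.84), with an adjusted p of 0.00269 in edgeR's quasi-likelihood test. The other ciRNA of this intron, ciRNA330, ends 1 base earlier and had 4 reads in all. Summed over both, the log2 fold change was 4.28 (SE 0.79, edgeR adjusted p = 0.00286).

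GBF1 ciRNA426 (chr14:123216625-123217227, plus strand) also covers a whole intron, of 603 nt. It had 1, 1 and 0 reads in the piglets and 10, 8 and 5 in the adults. The groups did not overlap, but no library held more than 10 reads. The log2 fold change was 3.60 (SE 1.08, edgeR adjusted p = 0.0441), and this call was lost in 13 of 15 alternatives, among them DESeq2 (adjusted p = 0.0600), the older form of edgeR's fit (adjusted p = 0.115) and each of the 6 fits without 1 library (adjusted p from 0.0707 to 0.116). Over all 15, its edgeR or DESeq2 adjusted p ran from 0.0280 to 0.128 and its log2 fold change from 3.16 to 4.03. Summed over the 6 ends of the set, which had 1, 2 and 0 reads in the piglets and 16, 10 and 8 in the adults, the log2 fold change was 3.65 (SE 0.94, edgeR adjusted p = 0.0206), and 6 of 14 alternatives lost it. Among these were mapped reads as library size (adjusted p = 0.0804) and the fits without Piglet-D30 replicate 1 or 3 or Adult-D210 replicate 1 or 2 (adjusted p from 0.0544 to 0.0719). Over all 14, the log2 fold change of the summed set ran from 3.19 to 4.65, the highest without Piglet-D30 replicate 2. The ciRNAs of PPP1R1B and GBF1 are 2 of the 6 members tested that reach the last base of the intron on the plus strand. The other 4, of EIF1, KPNB1, MAN2A2 and ZC3HAV1, had log2 fold changes from -1.57 to 0.97 and did not pass the test (edgeR adjusted p from 0.528 to 0.731).

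These were 2 of the 40 members with at least 10 reads, both higher in Adult-D210, against 8.28% of the 1341 circRNAs tested. The 111 calls behind that percent fell to 39 of 1212 without Adult-D210 replicate 1 and 42 of 1224 without Piglet-D30 replicate 3, each with 1 member called. Of the 1341, 1270 were exonic, and each of those has a read in Piglet-D30 replicate 1, so the table is not an even background. Among the other 31 ciRNAs tested, 0 were called, and in a fit of the 71 ciRNAs alone 1 was called, PPP1R1B ciRNA329. The other 418 members had too few reads to be tested. Among all circRNAs tested, 46 were called higher and 65 lower, and with mapped reads as library size these were 9 and 68. The median log2 fold change was -0.42 over all circRNAs tested and -0.0036 over the 40 members, 20 of which had a value above 0, and the sign of the members' median turned in 9 of 15 alternatives. With linked sets summed, 2 of 46 sets were called, PPP1R1B and GBF1, against 8.24% of 1347 units.

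**Figure D5:**
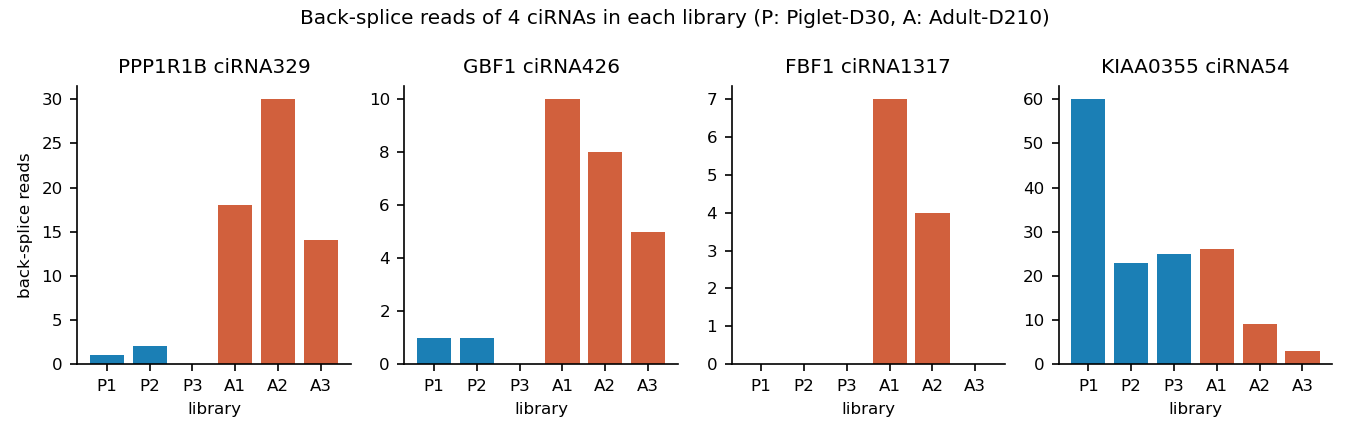
Back-splice reads (vertical axes, different scales) of 4 ciRNAs in Piglet-D30 replicates 1 to 3 (P1 to P3, blue) and Adult-D210 replicates 1 to 3 (A1 to A3, orange). PPP1R1B ciRNA329 has 18, 30 and 14 reads in the adult libraries and at most 2 in a piglet library, and FBF1 ciRNA1317 has reads in 2 of the 6 libraries.

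No other member passed the test. FBF1, a protein of the transition fibres of cilia, had ends at 20 and 21 nt that together had 0 reads in every piglet library and 13, 6 and 0 reads in the adults. Adult-D210 replicate 3 was at 0 like the piglets, and the summed set had an edgeR adjusted p of 0.0788. In 5 sets with at least 10 reads, of TET3, WDR90, HDAC3, TOMM22 and SIK3, named after their values were seen, the adults had 0 reads (12 to 16 reads each in the piglets, edgeR adjusted p from 0.143 to 0.205). TET3 had 12, 1 and 3 reads in the piglets, without overlap. Of all 194 sets, 58 had reads only in Piglet-D30, 19 only in Adult-D210 and 117 at both ages, and 33 had 2 reads in all. Of the 1315 ciRNAs that shared no end, 758 had reads only in Piglet-D30 and 479 only in Adult-D210. The share of all circRNAs tested with 0 reads at 1 age was not counted. KIAA0355 ciRNA54 had 60, 23 and 25 reads in the piglets and 26, 9 and 3 in the adults, with a log2 fold change of -1.20 (SE 0.52, edgeR adjusted p = 0.167). This value was -0.79 without Piglet-D30 replicate 1 and -1.87 without Adult-D210 replicate 1, and no alternative passed the test. In FADS1 the end at 19 nt (ciRNA190) had 9, 10 and 6 reads in the piglets and 2, 1 and 1 in the adults, without overlap, with a log2 fold change of -2.24 (SE 0.89, edgeR adjusted p = 0.131). The leading end of FADS1, 1 base away (ciRNA191), had 4, 13 and 15 reads in the piglets and 22, 2 and 5 in the adults, which overlapped.

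PPP6R1 ciRNA75 and ciRNA74 (52 and 25 reads), FADS1 ciRNA189 (40), and KIAA0355 ciRNA55 and ciRNA53 (16 and 11) did not pass the test. Further members had 10 to 39 reads each, and none passed the test. Their hosts were DNHD1 (2 members), a dynein heavy chain domain protein, UBQLN4, ITPR3, an inositol trisphosphate receptor, TRAP1, a mitochondrial chaperone, CSTPP1, NAT10, an RNA acetyltransferase, GAA, lysosomal alpha-glucosidase, EIF1, a factor of start codon selection, ZC3HAV1, an antiviral RNA-binding protein, MAN2A2, GPI, a glycolytic enzyme, NDUFS3, ZNF653, KPNB1, a nuclear import receptor, RNF25, WDR90 and PRP4K.

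Host genes were also read against lists of genes, although a circRNA does not measure the level of its linear transcript. Of 7 Leydig cell genes, STAR and CYP17A1 were hosts of ciRNAs, and only CYP17A1 was a member host. CYP17A1 is the enzyme that makes androgen precursors from progestins. Its 3 ciRNAs end 0, 2 and 3 nt before the 3′ splice site on the minus strand and together had 11, 3 and 3 reads in the piglets and 11, 13 and 10 in the adults. The groups overlapped through Piglet-D30 replicate 1, and the summed set did not pass the test (log2 fold change 1.38, SE 0.67, edgeR adjusted p = 0.213). All 7 reads of the ciRNA at 2 nt came from Adult-D210 replicate 2, whereas the one at 3 nt had 8, 3 and 0 reads in the piglets and 8, 6 and 8 in the adults.

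Of 46 genes of splicing and RNA processing, 11 hosted ciRNAs and 2 were member hosts, SF1, which binds the branch point, with 3 ciRNAs and 5 reads, and HNRNPK with 2 ciRNAs and 5 reads. Of 12 ribosomal protein genes among all circRNA hosts, 10 hosted ciRNAs and 3 were member hosts, RPL3 with 10 reads, RPL12 with 3 and RPL13 with 2. COL1A2 was the only member host among 6 genes of peritubular cells and stroma, with 2 reads, and ACTA2 was a host of ciRNAs but not a member host. No member host was among 24 genes of meiotic and later germ cells, 9 of spermatogonia, 10 of Sertoli cells or 5 of blood vessels and blood, of which PIWIL1, ACRV1, KIT and GATA4 hosted ciRNAs that shared no end. These counts are too low for a comparison of the ages.

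The members lay on 17 autosomes and chromosome X. Without the 2 genes left out, chromosome 2 had the most members, 69 of its 214 ciRNAs (32.2%), followed by chromosome 12 with 46 of 151 (30.5%) and chromosome 3 with 43 of 142 (30.3%). The highest shares were those of chromosome 4, 36 of 101 (35.6%), and chromosome 9, 28 of 82 (34.1%), and chromosome 17 had none among 41 ciRNAs. Introns of members had a median of 390 nt, from 142 to 102817 nt, and introns of ciRNAs that shared no end a median of 545 nt. The circles of members spanned a median of 361 nt, against 445 nt. These medians are descriptions, since members of a set share 1 intron.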

How the data were processed

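The deposited values used here are raw counts of back-splice reads for each circRNA in 6 testis libraries. The authors trimmed reads with Cutadapt, aligned them with TopHat2, and called back-splice junctions with TopHat-Fusion and CIRCExplorer2. Per the submitters' processing notes the build is Sscrofa10.2. SRPBM, a signal the authors deposited beside each count, divides it by mapped reads and read length, and gave back the mapped reads of each library (37364412 to 49179118).

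Reads carry no molecular identifiers, so counts of reads are not counts of molecules. The exonic circRNAs of the table lie on a few chromosomes and each has a read in Piglet-D30 replicate 1. They enter the test and the back-splice totals, which cover part of a library.

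The shared side was told by strand and checked against the intron listed beside each ciRNA. The limits of 5 nt and of 15 to 45 nt were chosen after the values were seen. circRNAs with at least 10 reads were tested with edgeR 4.0.16 in R 4.3.3 (TMM, robust quasi-likelihood F test, Benjamini-Hochberg over all rows tested) and called where the adjusted p was below 0.05 and the log2 fold change was 1 or more in either direction. The same test was run with the reads of each linked set summed. The code was tested on simulated data. The choice between the newer form of edgeR's fit, used here, and the older form was settled after both had been run and their calls seen. The newer form was taken because it gave the earlier results of these data, and the older form calls 1 member where the newer calls 2. Shares were compared with two-sided exact permutation tests in SciPy 1.17.1. Alternatives were DESeq2 1.42.0, other scalings, other filters, a block for the replicate number, ciRNA rows alone and each library left out.

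Named were the 10 sets with the most reads, sets of at least 4 ciRNAs, the 5 smallest and 5 largest distances among sets with at least 5 reads, members with at least 10 reads or called, and hosts in the lists. Of 44 hosts listed by identifier, 28 were given a symbol from a gene table. Members and lists were chosen with earlier results of these data known.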

Additional observations from a re-analysis of the deposited data

How the results depend on the processing

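The 2 members called became 1, PPP1R1B ciRNA329, with DESeq2, with mapped reads as library size, with a minimum of 5 reads, with no filter, with ciRNAs tested alone, and, chosen after seeing the data, in the older form of edgeR's fit. Leaving out a library in turn gave 1 in each of the 6 fits. The call of PPP1R1B ciRNA329 held in all 15 alternatives, with an edgeR or DESeq2 adjusted p from 6.95e-05 to 0.0290. The log2 fold change of this ciRNA ran from 4.09 with mapped reads as library size to 5.50 without Piglet-D30 replicate 2. The 2 sets called became 1 with mapped reads as library size, and 1 to 2 without a library. Deviations of libraries of the same number had r = 0.051, -0.015 and -0.031, and those of unlike number had r from -0.050 to 0.064. These values cannot tell whether the numbers pair the boars. With the replicate block 1 member and 1 set were called, and 33 circRNAs in all in place of 111. Without a library, 39 to 81 circRNAs were called in all. The median log2 fold change of the circRNAs tested was -0.42, and -0.90 with mapped reads as library size. The median of the members tested (-0.0036) ran from -1.75 with no filter to 0.43 with at least 20 reads, and was -0.45 with mapped reads. It was above 0 in 9 of 15 alternatives, among them DESeq2 (0.032), no TMM (0.079) and the replicate block (0.027). These 9 include 5 of the 6 fits without a library (0.043 to 0.40), and the fit without Adult-D210 replicate 1 gave -0.57. The set of INPP5K turned to a log2 fold change of -0.35 with mapped reads and -0.11 without Piglet-D30 replicate 1 (up to 0.40 without another library), none past the test.

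The 458 members became 186 among ciRNAs with at least 2 reads and 340 to 405 without a library, and tolerances of 2 or 5 nt left 458. Those tolerances took the share of shared ends at the 5′ splice site from 100% to 59.0% and 56.6%, chosen after seeing the data. The median distance of 2 nt became 1 nt with at least 2 reads. The mean log2 value of member reads in the adults minus that in the piglets was -0.60 over mapped reads, 0.13 as a share of ciRNA reads and 0.0231 over back-splice reads, and -0.87 to -0.34 without a library. It was -0.67 without the set of INPP5K, chosen after seeing the data. No leading share separated the ages with at least 3 reads (7 sets) or at least 8 reads (4 sets) in every library, both chosen after seeing the data. Where a value moved, the cause was not tested. The median of 2 reads a member limits what can be said of an end in any single library.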
